A study of Mus musculus with 12 samples.

Results

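The regions described here are stretches of open chromatin that every conventional CD4 T cell library carried, that none of the in vivo regulatory T cell (Treg) libraries carried, and that Tregs induced in culture carried as well. Overlapping peaks (1 bp or more) of the 12 deposited ATAC-seq lists were joined, which gave 76882 regions. Regions were selected on peak presence alone: a region was kept if it had a peak in all 4 conventional (Tconv) libraries, in none of the 6 in vivo Treg libraries and in at least 1 of the 2 in vitro-induced Treg (iTreg) libraries. That left 2829 regions, 3.68% of all. Their pattern of presence over the libraries is therefore a description and was not tested.

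ATAC-seq marks open chromatin with a transposase that cuts accessible DNA. The study moved 6.5TCR CD4 T cells, whose receptor recognises the antigen HA, into Aire-HA hosts, and sorted T cell subsets from bone marrow 14 days later. All cells were Balb/c and sorted as CD3+CD4+, each group had 2 libraries, and the protocol gives 2000 to 15000 sorted cells per experiment. The iTreg libraries were in vitro-induced cells gated on CD25+LAP+, with WT Balb/c in the library name. Donor Tregs were transferred 6.5TCR cells that had converted, sorted as CD45.1-CD45.2+ and CD25+LAP+. Host pTregs were CD45.1+CD45.2+ and CD25+CTLA4+Nrp1-, and host tTregs were the same but Nrp1+. Donor Tconv cells were 6.5TCR cells that had stayed CD25- (CD45.1-CD45.2+). Host Tconv cells were CD45.1+CD45.2- and CD25-; their titles say WT and their library names carry Aire-HCO. CD25, CTLA4, LAP and Nrp1 defined the gates. The labels do not say that replicates were separate animals, so p-values measure only the spread between these libraries, which may be technical.

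Tregs hold other T cells in check and depend on the transcription factor Foxp3. Thymic Tregs acquire it during development, peripheral Tregs acquire it later from conventional cells, and iTregs are commonly made in culture by stimulating conventional cells in the presence of TGF-beta. Conventional cells that have not met antigen run a quiescence programme in which Foxp1, Lef1, Bach2 and Satb1 take part.

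Among these regions were 98 start-site windows of 93 genes (71 windows of protein-coding genes and 27 of lncRNAs) in the RefSeq promoter table of GRCm38.p6, the assembly whose coordinates mm10 shares. They lay in 91 of the 2829 regions. The 250 bases upstream of 4 of these starts are shown. Like the other windows, each lay wholly or partly in a region with peaks in Tconv cells and iTregs and in no in vivo Treg library. Foxp1 is a forkhead transcription factor of quiescent T cells, and its start shown is an internal one (chr6:99266516-99266765, minus strand, all 250 bases inside the region). Tspan9, a tetraspanin membrane protein, likewise has an internal start here (chr6:128035063-128035312, minus strand, all 250 bases inside). Itgam is integrin alpha M, a myeloid adhesion receptor, and its single table start was in the set (chr7:128062390-128062639, plus strand, 238 bases inside). Bach2os is a lncRNA gene within the Bach2 locus (chr4:32571663-32571912, minus strand, 208 bases inside), chosen after its values were seen. Capitals mark the letters CTTCCTG, the other strand of the ETS-type word CAGGAAG.
Foxp1 internal start: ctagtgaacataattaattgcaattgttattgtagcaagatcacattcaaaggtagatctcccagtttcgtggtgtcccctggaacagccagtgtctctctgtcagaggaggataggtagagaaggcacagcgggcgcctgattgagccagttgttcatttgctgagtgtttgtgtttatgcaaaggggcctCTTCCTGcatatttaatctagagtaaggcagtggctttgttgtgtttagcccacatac
Bach2os start: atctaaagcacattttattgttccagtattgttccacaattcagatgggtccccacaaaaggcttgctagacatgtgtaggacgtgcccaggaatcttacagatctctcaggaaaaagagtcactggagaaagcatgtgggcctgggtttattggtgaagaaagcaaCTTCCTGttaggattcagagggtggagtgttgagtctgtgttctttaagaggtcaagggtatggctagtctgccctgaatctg
Tspan9 internal start: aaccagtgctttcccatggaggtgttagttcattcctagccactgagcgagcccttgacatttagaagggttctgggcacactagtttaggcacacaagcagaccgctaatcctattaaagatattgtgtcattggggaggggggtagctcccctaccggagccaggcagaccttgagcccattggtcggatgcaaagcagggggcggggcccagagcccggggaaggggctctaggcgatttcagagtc
Itgam start: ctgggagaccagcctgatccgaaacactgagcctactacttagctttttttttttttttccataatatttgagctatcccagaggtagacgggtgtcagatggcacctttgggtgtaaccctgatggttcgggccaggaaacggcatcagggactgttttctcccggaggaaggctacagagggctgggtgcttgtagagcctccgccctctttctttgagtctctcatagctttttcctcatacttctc
The ETS letters began 58 bases upstream of the Foxp1 start and 83 bases upstream of the Bach2os start. The windows of Tspan9 and Itgam held none of the 9 words searched, so they carry no capitals.

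Foxp1 had the most such regions, 13 of its 85, and its start sites split the libraries. With lists cut to equal length it had 3, fewer than Tgfbr3 with 8, Bach2 with 5 and Myo10 with 4. At the most upstream of 3 table starts (window chr6:99520944-99521243), peaks covered 2778 and 3210 bp in iTregs, 715 and 2077 bp in donor Tregs, 1701 and 1046 bp in host pTregs, 718 and 1667 bp in host tTregs, 2689 and 2592 bp in donor Tconv and 2280 and 2559 bp in host Tconv. That start was open, meaning that it carried a peak, in all 12 libraries. At the internal start shown above (region chr6:99265215-99266879), peaks covered 1594 and 1662 bp in iTregs, against 1509 and 1430 bp in donor Tconv and 938 and 1502 bp in host Tconv, with no peak in any in vivo Treg library. The groups did not overlap: both iTreg widths were above all 4 Tconv widths. The same held at 31.4% of the described regions with both iTreg peaks and at 37.1% of regions open in all 12 libraries. At the last of the 3, farther into the gene (region chr6:99027703-99029186), the pattern was turned round. Peaks covered 1460 and 1444 bp in iTregs, 1123 and 1002 bp in donor Tregs, 1168 bp in host pTreg replicate 1, 913 and 1080 bp in host tTregs, and there was none in host pTreg replicate 2 or in any Tconv library. Only iTregs, of the 6 groups, had peaks in both libraries at all 3 starts, which follows largely from the choice of starts. The rule allows no in vivo Treg peak at the internal start. The last start, without a Tconv peak, was described after its values were seen.

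Tspan9 showed the same arrangement at a single internal start. The region there (chr6:128034039-128036645) was covered over 2607 and 2371 bp in iTregs, against 1921 and 2150 bp in donor Tconv and 1962 and 1859 bp in host Tconv. Both iTreg libraries were wider than every Tconv library, and the nearest in vivo Treg peak lay 41894 bp away. Its most upstream table start was covered over 499 and 551 bp in iTregs, 430 and 325 bp in donor Tregs, 308 bp in host pTreg replicate 1, and 544 to 593 bp in the 4 Tconv libraries, with no peak in the other 3 in vivo Treg libraries. The Itgam start (region chr7:128062402-128062843) was narrow, with 350 and 390 bp in iTregs, against 437 and 397 bp in donor Tconv and 362 and 408 bp in host Tconv. At the Bach2os start (region chr4:32570574-32571870) peaks covered 899 and 1297 bp in iTregs, against 492 and 490 bp in donor Tconv and 417 and 739 bp in host Tconv. Both iTreg values were again above all Tconv values, but an in vivo Treg peak lay only 261 bp from that region.

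**Figure D1:**
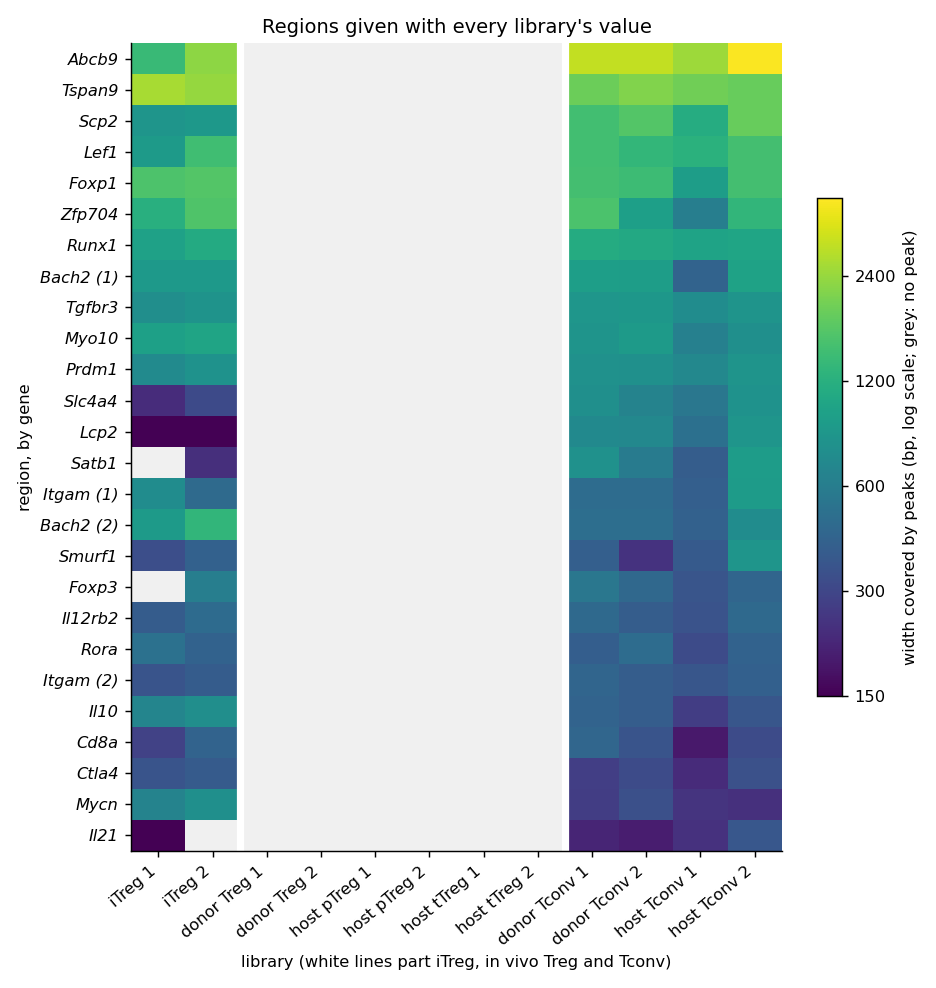
Width covered by peaks in each library (columns) at the 26 regions whose values are given in the text (rows, named by gene), on a log colour scale in bp; grey marks no peak. The 6 in vivo Treg columns are empty by the rule. Lcp2 shows the 150 bp minimum in both iTreg libraries, and Il21 shows it in iTreg replicate 1 with no peak in replicate 2. Foxp1 and Tspan9 are covered over more than 1.5 kb in both iTreg libraries.

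The count was read against its background. A peak in all 4 Tconv and none of the 6 in vivo Treg libraries was found at 3770 regions, 4.9% of all. The opposite pattern, a peak in all 6 in vivo Treg and no Tconv library, was found at 587 regions, 0.764%, of which 289 had an iTreg peak, and 1208 regions (1.57%) had peaks in all 6 in vivo Treg libraries and no iTreg peak. Of the 3770 regions, 2471 had a peak in both iTreg libraries, 358 in 1 of them and 941 in neither. The share with an iTreg peak was therefore 75.0% (exact binomial 95% interval 73.6 to 76.4%, counting error over regions only). iTreg replicate 2 carried 2739 of the 2829 regions and replicate 1 carried 2561, so 268 rested on replicate 2 alone and 90 on replicate 1 alone. Peaks in both iTreg and no in vivo Treg library stood at 20030 regions, 26.1% of all, so the 2471 regions here were a small part of what set iTreg lists apart.

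An iTreg peak was less frequent at these Tconv regions than at Tconv regions that in vivo Tregs also carried. Where 1 in vivo library had a peak the iTreg share was 86.7%, where 3 had one it was 91.4%, and where all 6 had one it was 97.8%. Over all 29868 Tconv regions with 1 to 6 in vivo peaks it was 96.0% (interval 95.8 to 96.3%). The share thus went up step by step with the number of in vivo Treg libraries that carried the region. Peak width moved with it: the median width covered in Tconv libraries was 349.5 bp at 0 in vivo peaks, 361.25 bp at 1 and 887.5 bp at 6. Within bins of equal Tconv width the order stayed the same, for example 73.6% without against 93.0% with in vivo peaks at 300 to 400 bp, and 81.8% against 97.8% at 700 to 1000 bp. The rule used iTreg peaks to pick regions among those without in vivo peaks, but it did not set these shares. They are a description and were not tested.

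**Figure D2:**
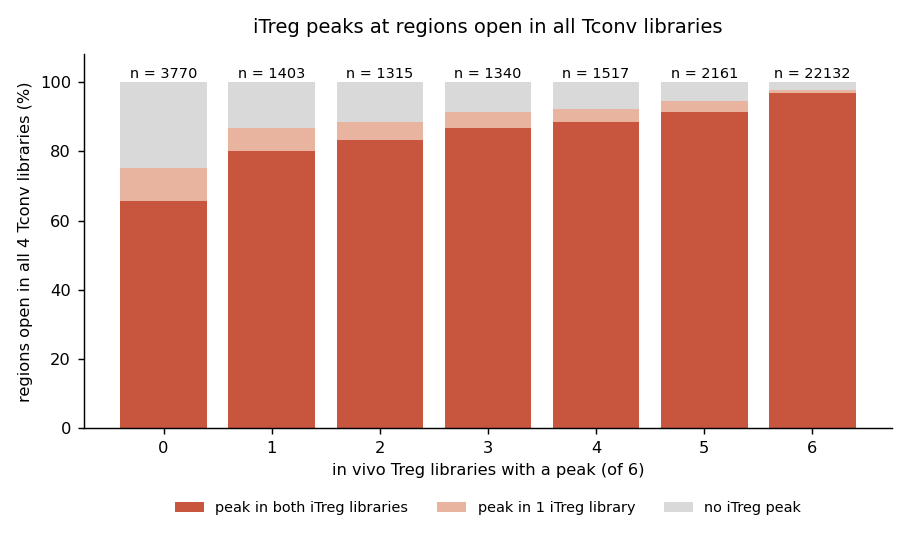
Share (%) of regions open in all 4 Tconv libraries that had a peak in both, 1 or neither iTreg library, by the number of in vivo Treg libraries with a peak; n is the number of regions. The share with an iTreg peak was 75.0% at 0 in vivo libraries and 97.8% at 6.

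The same pattern was then looked for in libraries that had not chosen the regions. The donor and iTreg libraries alone picked 7657 regions (peaks in both donor Tconv, neither donor Treg and at least 1 iTreg library). Of these, 25.9% and 10.7% had a peak in the host pTreg libraries, 3.17% and 14.4% in the host tTreg libraries, and 57.9% and 85.7% in the host Tconv libraries. All 4 host Treg values lay below both host Tconv values. Over all regions the same libraries carried 47.8% and 40.9%, 35.1% and 45.0%, and 46.4% and 56.9%. The host Treg mean was 13.5 ± 9.47% (SD, n = 4) and the host Tconv mean 71.8 ± 19.6% (SD, n = 2), a difference of -58.3 percentage points (two-sided exact permutation test, p = 0.0667, the smallest that the 15 splits allow). Host Treg libraries carry another run code than host Tconv libraries in their names, and this difference cannot be told apart from it.

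The host and iTreg libraries alone picked 3933 regions. Of these, 9.89% and 15.5% had a peak in the donor Treg libraries, against 95.7% and 92.0% in the donor Tconv libraries, which share a run code with them. The means were 12.7 ± 3.94% in donor Treg and 93.8 ± 2.61% in donor Tconv (SD, n = 2 each), a difference of -81.1 points (two-sided exact permutation test, p = 0.333, the smallest possible with 6 splits). Regions chosen on host cells thus rarely had a peak in converted transferred cells and mostly had one in unconverted ones, but with 2 against 2 libraries no test could pass 0.05. The donor Treg libraries carried 40.7% and 43.4% of all regions, and the donor Tconv libraries 60.4% and 56.4%. Donor Treg lists were also shorter, with 32234 and 34467 peaks against 47193 and 44350, and the number in their library names was lower. The part of either in the donor difference was not tested. Each iTreg library was also held out in turn. Of the 3770 Tconv regions without in vivo peaks, replicate 2 carried 96.5% of the 2561 that replicate 1 carried and 22.2% of the 1209 that it lacked; replicate 1 carried 90.2% of the 2739 that replicate 2 carried and 8.73% of the other 1031.

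Peaks at these regions were narrower in iTregs and in Tconv cells than at regions open in all 12 libraries. The per-library median width was 361 and 391 bp in iTregs, 386 and 347 bp in donor Tconv and 269 and 389 bp in host Tconv. Host Tconv replicate 1 had the narrowest peaks, and the iTreg values lay within or close to the range of the other 3. The means were 376 ± 21.2 bp in iTregs (SD, n = 2) and 348 ± 55.9 bp in Tconv (SD, n = 4), a difference of 28.25 bp (two-sided exact permutation test, p = 0.6; the smallest possible is 0.0667). With lists cut to equal length the difference was 91.5 bp, and where peaks had to cover 0.5 of a region it was 5.5 bp. At the 21435 regions open in all 12 libraries the medians were 950 and 1036 bp in iTregs, 559 to 800 bp in in vivo Tregs and 710 to 954 bp in Tconv. Medians over whole lists were closer, with 436 and 447 bp in iTregs and 452 to 520 bp in Tconv. Similar sets had similar widths. The median width covered in Tconv was 354 bp at the described regions and 338 bp at the 941 Tconv regions absent from every Treg library. It was 357.25 bp at the 1217 Tconv and iTreg regions with 1 in vivo Treg peak. At the 2471 regions with both iTreg peaks the median ratio of iTreg to Tconv width was 1.11, the same as at the regions open in all 12 libraries. Both iTreg widths exceeded all 4 Tconv widths at 776 of the 2471 (31.4%, against 37.1% of the regions open in all 12), and both fell below all 4 at 326 (13.2%, against 6.83%).

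**Figure D3:**
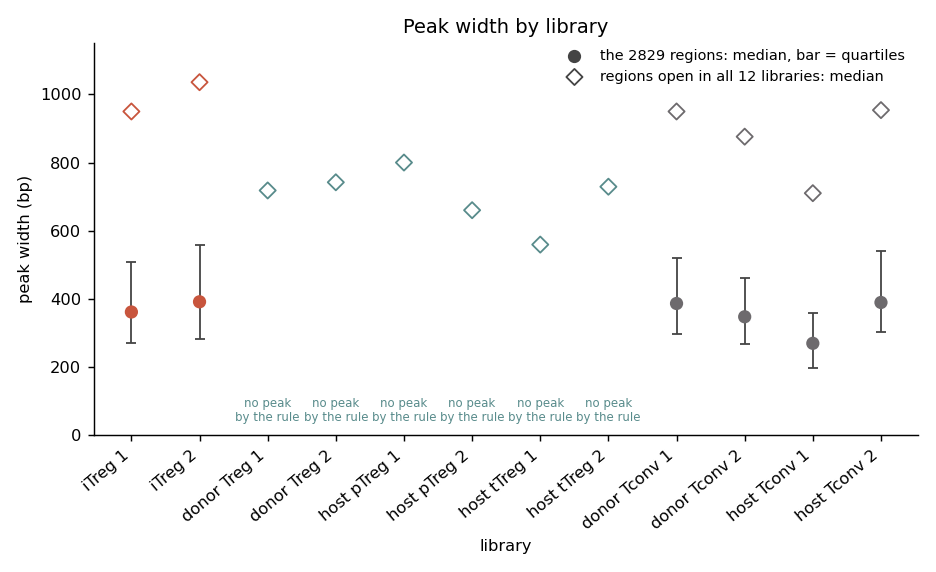
Median peak width (bp) per library at the 2829 regions (filled circles, bars from the lower to the upper quartile) and at regions open in all 12 libraries (open diamonds). The 2 iTreg medians, 361 and 391 bp, sit beside Tconv medians of 269 to 389 bp, and both are far below the widths at regions open everywhere.

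Narrow Tconv regions more often had no in vivo Treg peak than wide ones. The described regions made up 40.1% of Tconv regions 150 to 200 bp wide, 15.9% of those of 300 to 400 bp, 2.83% of those of 700 to 1000 bp and 0.0807% of those of 1500 bp or more. Only 42 of them (1.48%) averaged 1000 bp or more in Tconv, against 9605 (28.6%) of the 33638 regions open in all 4 Tconv libraries. A peak of exactly 150 bp, the narrowest in any list, was present in at least 1 Tconv library at 497 of them (17.6%). Lists were also shorter in in vivo Tregs, with 28394 to 37934 peaks, against 58357 and 63207 in iTregs and 37050 to 47193 in Tconv. A number in the library names, which the labels do not explain, was at most 17000 in in vivo Tregs and at least 42000 in iTregs and Tconv. The part of list length and of that number in the missing in vivo peaks was not tested. A missing peak is not closed chromatin, since no read depth came with the lists, and in sorted bulk cells fewer open cells cannot be told apart from less open chromatin per cell.

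**Figure D4:**
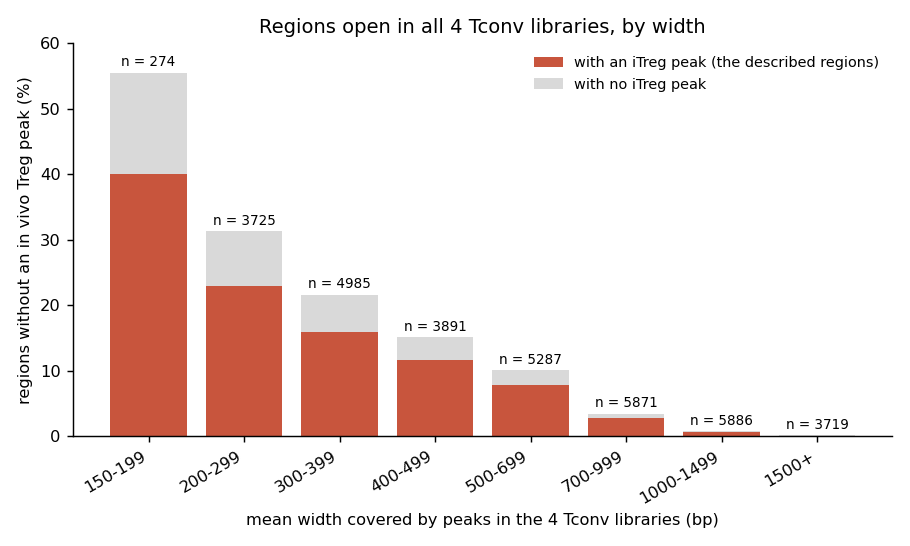
Regions open in all 4 Tconv libraries, by mean width covered in Tconv (bp); bars give the share (%) without an in vivo Treg peak, split by iTreg peak, and n is the number of regions per bin. The share with an iTreg peak is 40.1% in the narrowest bin and under 1% from 1000 bp up.

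Just outside the rule stood 1217 regions with a single in vivo peak. That peak was narrow, with a median width of 150 and 189 bp in donor Tregs, 202.5 and 150 bp in host pTregs and 150 and 150 bp in host tTregs. It had the minimum of 150 bp in 29.2% of cases in host pTreg replicate 1 and 44.2% in donor Treg replicate 2. In the other in vivo libraries this was 55.0 to 64.9%. It came from host pTreg replicate 1, the longest in vivo list, at 554 of the 1217 regions and from host tTreg replicate 1, the shortest, at 14. On the Tconv side, 1932 regions had iTreg peaks, no in vivo peak and peaks in 3 of 4 Tconv libraries, and 1568 of these lacked host Tconv replicate 1 alone. Without that library the rule found 4397 regions in place of 2829.

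Within these regions iTreg and Tconv peaks lay at the same place, but the regions were made by joining overlapping peaks. An iTreg peak shared bases with a peak of every Tconv library at 2816 of the 2829 (99.5%). The 4 Tconv libraries shared bases pair by pair at 2812 (99.4%). Such sharing, and with it the closeness of peak centres, largely follows from the joining and is only a description. The median distance between peak centres was 29.5 to 35 bp between iTreg and Tconv libraries, 25 bp between the iTreg libraries and 23 to 27.5 bp between Tconv libraries.

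The regions lay away from gene ends. By midpoint, 4.60% (130) were within 1 kb of an end of a protein-coding gene, against 2.76% of the 941 Tconv regions absent from every Treg library, 8.71% of the 1217 just outside, 40.2% of regions open in all 12 libraries and 16.6% of all regions. Inside a gene body lay 63.0% (1783), a share close to the 59.8% of all regions, and another 722 lay outside within 50 kb of a gene. The sources used here do not split gene bodies into exons and introns. An in vivo Treg peak stood outside but within 5 kb of 34.6% of all regions. The share was 38.3% at regions open in all 12 libraries and 33.4% at the 1217 just outside. It was 27.4% at the described regions, against 45.5% at the 941 regions absent from every Treg library. The same order held in each of the 6 in vivo libraries taken alone, from 15.2% against 28.5% in host tTreg replicate 1 to 23.8% against 40.9% in host pTreg replicate 1. At 271 of the regions (9.58%) no in vivo Treg peak lay within 50 kb, against 46 of the 941 (4.89%). Regions are not replicates, so these differences were not tested. Another of the regions lay within 50 kb of 1155 of them (40.8%). For neither 50 kb share was a value over all regions worked out. The share per chromosome ran from 2.59% of X regions to 4.62% of chromosome 9 regions, with 0 of 15 on Y.

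The 98 start-site windows differed in base make-up from those open in all 12 libraries. Their median was 11 CpG and 57.0% GC per 300-base window (250 before to 50 after the start), against 22 CpG and 62.0% in the 11462 windows open in all 12 and 7 CpG and 52.7% in all 32851 windows. The E-box word CAGCTG, its own reverse complement, was in 27 of the 98 (27.6%), against 14.0% of windows open in all 12 and 16.3% of all windows. The ETS word CAGGAAG was in 16.3%, against 12.5% and 13.3%, and the AP-1 word TGANTCA in 7.14%, against 4.14% and 7.81%. The other 6 words searched on both strands (CTTTGAT for TCF/LEF, TGTGGTT for RUNX, TGTTTAC for FOXO, GGTGTGA for T-box, AGATAAG for GATA factors and GGTGTGG for KLF) were each in 1 to 5 of the 98 windows. All 6 were less frequent in these windows than in all 32851, for example KLF with 5.1% against 7.58%. Beside windows open in all 12, TCF/LEF (3.06% against 2.43%) and RUNX (4.08% against 3.7%) were slightly more frequent and the others less. GGTGTGA and GGTGTGG share their first 6 letters but cannot match at the same position. A match is only a run of letters in a window.

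Genes with such regions numbered 1820 of the 15873 with any region. Of these, 1393 had 1 and 61 had 4 or more. The leading genes were Foxp1 with 13 of 85 regions, Zfp704 with 9 of 21, Tgfbr3 with 8 of 35, Myo10 with 7 of 20 and Sgms1 with 7 of 55. Myo10 is an unconventional myosin of filopodia and Sgms1 a sphingomyelin synthase. With 6 regions each stood Slc16a10 (an aromatic amino acid transporter), Pdlim5 (a PDZ and LIM domain scaffold), Mrtfa (an actin-sensing coactivator of SRF), Rptor (the raptor subunit of mTORC1), Cacna1d (a calcium channel subunit), Arid1b (a BAF chromatin remodeller subunit) and Bach2. Ilrun, Slc4a4 and Tspan9 had 5. Zfp280d, Nsg2 and Adgrl2 (an adhesion receptor of the latrophilin family) had 4, at 33.3 to 44.4% of their regions. The share over all regions was 3.68%, and large genes with many regions had more chances to appear.

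**Figure D5:**
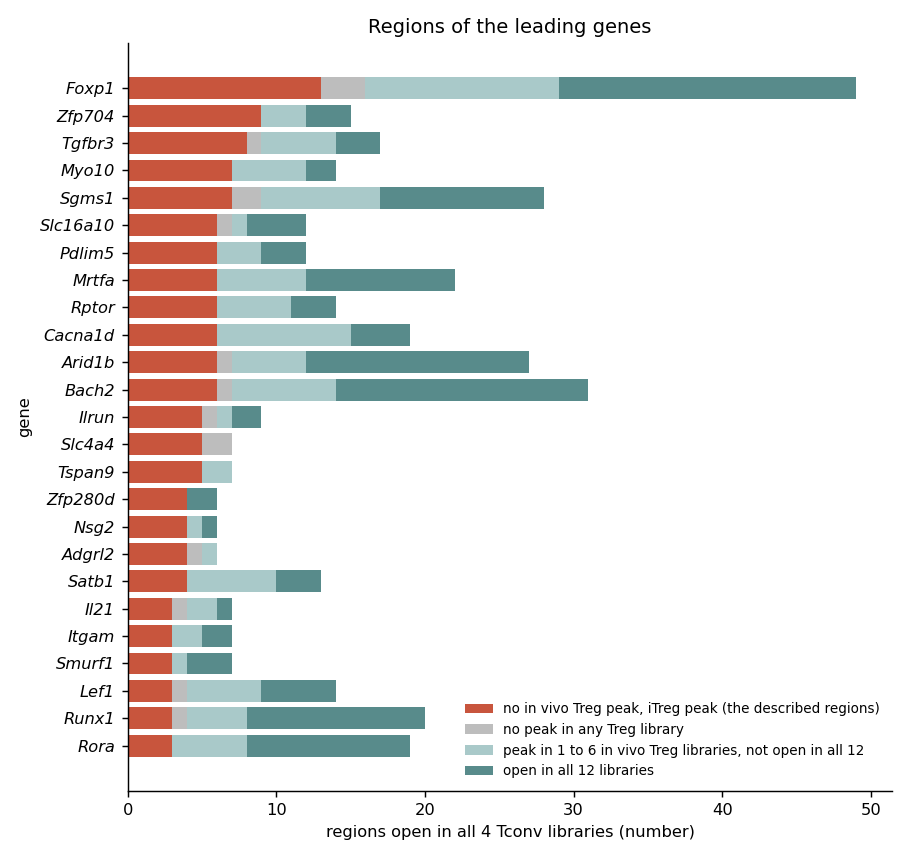
Number of regions open in all 4 Tconv libraries at 25 of the 39 named genes, split by what the Treg libraries carried. These are not the 25 genes with most regions: genes named from the lists with 3 are shown, while 61 genes had 4 or more. Foxp1 has 13 of the described regions beside 20 open in all 12 libraries, whereas Slc4a4 and Tspan9 have no region open in all 12.

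In some genes no region open in all 4 Tconv libraries had an in vivo Treg peak. All 7 Tconv regions of Slc4a4, a sodium bicarbonate cotransporter, lacked in vivo Treg peaks, and 5 of them had an iTreg peak. The widest of a gene's regions is here the one with the largest mean width covered by peaks in the 4 Tconv libraries. The widest of Slc4a4 (chr5:89044553-89045456, inside the gene) was covered over 227 and 314 bp in iTregs, against 766 and 648 bp in donor Tconv and 548 and 799 bp in host Tconv, and the nearest in vivo Treg peak was 278855 bp away. Here both iTregs were narrower than all 4 Tconv. Among genes with 3 or more of the regions, Syk (a tyrosine kinase), Bace1 (a secretase) and Dmbt1, with 3 each, also had no Tconv region with an in vivo peak; these 3 genes were picked out after their values were seen. In Zfp704, a zinc finger gene, 9 of 15 Tconv regions were in the set and 3 were open in all 12 libraries. Its widest (chr3:9608668-9610517), 492 bp from the gene's end, was covered over 1190 and 1613 bp in iTregs, against 1584 and 963 bp in donor Tconv and 611 and 1305 bp in host Tconv, with no in vivo peak within 58198 bp. The groups overlapped there. In Myo10, 7 of 14 were in the set, and the widest (chr15:25669497-25670562) had 970 and 1024 bp in iTregs, against 820 and 898 bp in donor Tconv and 630 and 768 bp in host Tconv, without overlap.

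Quiescence genes of naive T cells held 31 of the regions among 386 (8.03%, beside 3.68% over all regions), from 9 of the 20 genes on the list. As a share of regions open in all 4 Tconv libraries this was 13.9%, beside 8.41% over all regions. The list had 39 Tconv regions without in vivo peaks, and 79.5% of them had an iTreg peak, beside 75.0% overall. Foxp1 gave 13, Bach2 6, Satb1 4 and Lef1 3, and Klf2, Il6ra, Ets1, Btg2 and Dapl1 the other 5. Lef1 is an HMG-box factor of naive T cells. Its widest region (chr3:131190323-131191840, inside the gene) had 899 and 1457 bp in iTregs, against 1486 and 1319 bp in donor Tconv and 1223 and 1491 bp in host Tconv. The iTreg widths here reached from below to within the Tconv range. Bach2 is a repressor that restrains effector genes. Its widest region by Tconv width (chr4:32328475-32329481, inside the gene) had 886 and 881 bp in iTregs, against 945 and 937 bp in donor Tconv and 429 and 998 bp in host Tconv. Apart from the low host Tconv replicate 1, iTregs were narrower there, unlike at the Bach2os start, which lies in the same locus and had its widest peaks in iTregs. Satb1, a chromatin organiser, differed from these: its widest region (chr17:51799967-51800890) had no peak in iTreg replicate 1 and 234 bp in replicate 2, against 788 and 586 bp in donor Tconv and 395 and 924 bp in host Tconv. That region met the rule through 1 iTreg library.

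TGF-beta receptor and Smad genes held 18 of the regions among 205 (8.78%, beside 3.68%), from 7 of 18 genes. Tgfbr3 alone, the co-receptor betaglycan, gave 8. Its widest region by Tconv width (chr5:107165351-107166234, inside the gene) had 757 and 815 bp in iTregs, against 841 and 857 bp in donor Tconv and 738 and 816 bp in host Tconv. The groups overlapped there. Its next region (chr5:107147897-107148900), which spans more bases, had 502 and 537 bp in iTregs, against 492 to 990 bp in the 4 Tconv libraries, of which only host Tconv replicate 1 was below the iTregs. The ubiquitin ligases Smurf1 and Smurf2, which act on Smads and TGF-beta receptors, gave 3 and 2 regions, and the common mediator Smad4 gave 2. At the widest Smurf1 region (chr5:144942053-144942880) peaks covered 331 and 416 bp in iTregs, against 405 and 243 bp in donor Tconv and 378 and 828 bp in host Tconv, again with overlap. Smad3, Skil and Acvr1 gave the other 3. Without Tgfbr3 the list would thus hold 10 regions.

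Genes of T cell receptor signalling had 13 regions among 341 (3.81%, close to the 3.68% of all regions). Of their 24 Tconv regions without in vivo peaks, 54.2% had an iTreg peak, the rest being absent from every Treg library. Lcp2 encodes the adaptor SLP-76. One of its 2 regions (chr11:34092910-34093740), 1044 bp beyond the gene's end, had 150 and 150 bp in iTregs, the narrowest width in any list, against 715 and 691 bp in donor Tconv and 506 and 831 bp in host Tconv. At that region the iTreg peaks were far narrower than any Tconv peak. The other (chr11:34033889-34034531) had 565 and 586 bp in iTregs, against 318 to 643 bp in Tconv, so the groups overlapped. Fyn, a Src-family kinase, and Cd5, an inhibitory receptor, gave 2 each. T cell activation genes gave 6 of 187 (3.21%), 1 each at Egr2, Cd69, Myc, Nfatc1, Nfatc2 and Cd40lg. The AP-1 and BATF family gave 8 of 139 (5.76%, beside 3.68%), and 6 of the 8 were those of Bach2.

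Of effector lineage lists, Th1 and cytotoxic genes gave 3 of 156 (1.92%), Th2 genes 2 of 64 (3.12%), Th17 genes 4 of 123 (3.25%) and follicular helper genes 5 of 107 (4.67%), beside 3.68% over all regions. Runx1, which is needed for T cell development, gave 3 of its 37 regions. The widest (chr16:92821439-92822724), 3992 bp from the gene's end, had 976 and 1120 bp in iTregs, against 1132 and 1093 bp in donor Tconv and 1014 and 1036 bp in host Tconv. Groups overlapped, and an in vivo peak stood 1358 bp away. Rora, a nuclear receptor of Th17 cells, gave 3 of 51, the widest (chr9:68888837-68889344) with 508 and 419 bp in iTregs, against 400 and 481 bp in donor Tconv and 318 and 422 bp in host Tconv. Il21, the cytokine of T follicular helper cells, had 3 regions, all outside the gene. The widest of them (chr3:37194652-37195063) had 150 bp in iTreg replicate 1 and no peak in replicate 2, against 210 and 194 bp in donor Tconv and 241 and 366 bp in host Tconv. Il12rb2, a chain of the IL-12 receptor, had 2, the wider (chr6:67339468-67340006) with 392 and 474 bp in iTregs, against 460 and 397 bp in donor Tconv and 348 and 458 bp in host Tconv. At Rora and at Il12rb2, 1 iTreg library was above all Tconv values and the other within their range, while at this Il21 region both were below it. The other 2 Il21 regions had peaks in both iTreg libraries, with 311 and 314 bp at chr3:37243917-37244240, against 193 to 269 bp in Tconv, and 339 and 279 bp at chr3:37180006-37180375, against 150 to 332 bp in Tconv. iTregs were above all Tconv libraries at the region that starts at 37243917 and overlapped them at the other. Runx and Ikaros family genes gave 6 of 177 (3.39%), genes of the IL-2 and STAT5 axis 4 of 138 (2.90%), inhibitory receptor and exhaustion genes 5 of 166 (3.01%), homing and integrin genes 3 of 180 (1.67%), innate-like and NK receptor genes 2 of 63 (3.17%), and pan-T and CD4 lineage genes 4 of 144 (2.78%). All 290 listed genes together gave 117 of 2610 (4.48%, beside 3.68% over all regions), from 64 genes; some genes stand on more than 1 list. Jak1, a kinase of cytokine receptors, gave 2, as did Tox, an HMG-box factor, and Itga6, integrin alpha 6.

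Core Treg genes gave 4 of 213 (1.88%, beside 3.68% over all regions), 1 each at Foxp3, Ctla4, Tnfrsf9 and Entpd1. Effector Treg genes gave 5 of 193 (2.59%) at Prdm1, Rora and Il10. Of the regions open in all 4 Tconv libraries these were 4.49% and 6.76%, beside 8.41% over all regions. The following 4 regions were picked out after their values were seen. The Foxp3 region (chrX:7586325-7586990, inside the gene) had no peak in iTreg replicate 1 and 611 bp in replicate 2, against 548 and 455 bp in donor Tconv and 357 and 435 bp in host Tconv; an in vivo Treg peak lay 1354 bp away. The Ctla4 region (chr1:60882814-60883202), 26017 bp from the gene, had 350 and 387 bp in iTregs, against 276 and 318 bp in donor Tconv and 225 and 339 bp in host Tconv. Both iTregs were above all Tconv. The Il10 region (chr1:131005817-131006576) was wider still in iTregs, with 666 and 760 bp, against 426 and 393 bp in donor Tconv and 273 and 359 bp in host Tconv. Prdm1 encodes the repressor Blimp-1, and its region (chr10:44443394-44444347, inside the gene) had 723 and 797 bp in iTregs, against 786 and 778 bp in donor Tconv and 691 and 817 bp in host Tconv. That these regions had Tconv peaks and no in vivo Treg peak follows from the rule. The opposite pattern, peaks in all 6 in vivo Treg and no Tconv library, stood at more regions of these lists. It was found at 13 of the 213 core and 12 of the 193 effector Treg gene regions, beside 0.764% of all regions.

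Genes of other cell types came from small lists. CD8 T cell genes had 4 of 60 (6.67%), myeloid genes 4 of 52 (7.69%), stem and progenitor genes 3 of 47 (6.38%) and erythroid genes 1 of 11 (9.09%), all above the 3.68% over all regions but from 1 to 4 regions each. Plasma cell genes had 1 of 38 (2.63%, at Prdm1) and B cell genes 0 of 34. Cd8a, the CD8 co-receptor, had 2 of its 4 regions in the set. The wider (chr6:71376672-71377125) had 287 and 429 bp in iTregs, against 445 and 353 bp in donor Tconv and 188 and 316 bp in host Tconv, so the groups overlapped. Itgam gave 3, its widest (chr7:128080063-128081028) with 743 and 465 bp in iTregs, against 477 and 477 bp in donor Tconv and 405 and 915 bp in host Tconv. Flt3, a receptor kinase of progenitors, gave 2. Near the Myc-family gene Mycn, the region chr12:12942245-12943011 had 648 and 767 bp in iTregs, against 273 and 333 bp in donor Tconv and 247 and 235 bp in host Tconv. There iTregs were wider than every Tconv library, and the nearest in vivo peak was 271946 bp away.

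Marker genes were checked at their ends for whole libraries. All 8 T cell and both CD4 markers had a peak over or within 1 kb of the gene's end in every library. The Foxp3 end was open in the 6 in vivo Treg and both donor Tconv libraries but in neither iTreg nor host Tconv library, and the other 4 Treg markers were open in all 12. Of 5 B cell markers 2 were open in both iTregs, 0 or 1 in in vivo Tregs and 0 to 2 in Tconv, with Pax5 at 0 throughout. Of 6 myeloid markers 2, 1 and 1 were open, of 4 erythroid markers 2, 1 and 2, of 4 stem markers 4, 1 and 0 to 1, of 3 NK markers 1, 0 to 1 and 1, and of 2 CD8 markers 1, 0 to 1 and 1, in iTregs, in vivo Tregs and Tconv. Cd8a, Csf1r, Csf3r, Mpo, Elane, Gata1, Alas2, Ncr1 and Klrb1c were at 0 in all 12. The part of other cells in the described regions was not tested.

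The widest regions were few. By mean Tconv width the first 5 were at Abcb9, Tspan9, Scp2, Lef1 and Foxp1. At Abcb9, a lysosomal peptide transporter gene, the region chr5:124076839-124080756 had 1395 and 2285 bp in iTregs, against 2953 and 2944 bp in donor Tconv and 2477 and 3918 bp in host Tconv, and an in vivo peak lay 574 bp away. At Scp2, the sterol carrier protein gene, the region chr4:108080850-108082796 had 834 and 863 bp in iTregs, against 1473 and 1669 bp in donor Tconv and 1142 and 1874 bp in host Tconv. In both, iTregs were narrower than all 4 Tconv, the reverse of the Foxp1 and Tspan9 starts. Of the 26 regions given with every library's value, 9 met the rule under each of 17 alternative settings: those at Abcb9, Tspan9, Lef1, Foxp1, Runx1, Tgfbr3, Myo10, Prdm1 and Rora.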

How the data were processed

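Chromatin accessibility (ATAC-seq) was given as 1 peak list per library. The submitters' processing notes name mm10, bedtools, HOMER 4.10 and Bowtie2 2.3.3. Settings and any read shift are not stated, and neither is the intersection that the list names mention. The authors deposited coordinates and a score, which is 1000 for every peak and was not used; depth is unknown. Groups came from titles.

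Peaks were merged in Python 3.11.15 (numpy 2.4.6, pandas 2.3.3, scipy 1.17.1, matplotlib 3.10.9), and the rule was tested on simulated data. Gene ends and start-site windows came from RefSeq GRCm38.p6. Each region went to the smallest protein-coding gene around its midpoint, or failing that to the nearest one within 50 kb. Named were the 15 genes with most regions, the 8 with the highest share among those with at least 4, and genes of the 23 lists with at least 2 regions or 1 within 1 kb of an end. At some of these and a few further genes the widest region, a start-site region or both were given in full. These 26 regions were chosen after seeing values. Members and lists were chosen with earlier results of these data known. Library-level differences were tested by two-sided exact permutation. Alternatives changed merging, overlap, peak width, list length, iTreg requirement, libraries, windows and replicate block. The labels tie no replicate number to an animal. Results at a few named genes are not reported here.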

Additional observations from a re-analysis of the deposited data

Results flagged for a closer look

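In 31 groups of 4 or 6 libraries, the gap of the most extreme library to its neighbour was set against the group's range, and 3 stood apart; chance gives about 1 in 20. All 3 were covered widths over the 4 Tconv libraries. At the internal start of Foxp1, host Tconv replicate 1 had 938 bp, below the other 3. At the widest Bach2 region the same library had 429 bp, again the lowest. At the Itgam region inside the gene, host Tconv replicate 2 had 915 bp, above the other 3. Host Tconv replicate 1 had the shortest Tconv list, 37050 peaks, and the lowest median width at the described regions, 269 bp; its part in the low values was not tested.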

How the results depend on the processing

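The number of regions was 2821 with peaks up to 100 bp apart merged, 2953 where peaks had to cover at least 0.5 of a region's width, 2560 without peaks under 200 bp and 2471 with both iTreg libraries required. Keeping only as many peaks per list as the shortest list has, widest first, left 874, of which 61.4% overlapped one of the 2829 regions (19.0% of these); with 0.5 cover the shares were 47.2% and 49.3%. Leaving out 1 library gave 2570 to 4397 regions, the highest without host Tconv replicate 1. The share with an iTreg peak was 71.5% with 0.5 cover, 51.3% with equal lists, 65.5% with both iTregs required and 67.9 to 76.9% without 1 library. The share recovered in the held-out iTreg library was 87.0% with equal lists and 96.1 to 96.8% without 1 library. The share near gene ends was 7.25% with 0.5 cover, 7.78% with equal lists, 3.08% within 500 bp, 7.81% within 2000 bp and 4.60 to 5.17% without 1 library. The share with an in vivo peak within 5 kb was 33.9% with 0.5 cover, 33.5% with equal lists, 5.20% within 1 kb, 73.2% within 20 kb and 24.2 to 27.6% without 1 library. List genes held 117 regions, 52 with equal lists, 76 in gene bodies alone and 98 to 143 without 1 library. The iTreg minus Tconv width was 91.5 bp with equal lists, 5.5 bp with 0.5 cover and 13.0 to 44.2 bp without 1 library, the host difference -72.1 to -44.3 points and the donor difference -83.9 to -71.2 points without 1 library. With a replicate block these were 28.2 bp (exact permutation p = 0.667), -58.3 points (p = 0.111) and -81.1 points (p = 0.5). None passed 0.05, as without the block. Correlations of replicate differences between groups ran from -0.131 to 0.057. They cannot show whether libraries of equal replicate number came from the same animal. Counts moved by over 1.5 times at 34 of 39 named genes with equal lists, 18 with 0.5 cover and 12 in gene bodies alone. With 0.5 cover Cd8a, Cd5, Lcp2, Smurf2, Jak1, Itga6 and Mycn had 0 regions. The cause was not tested beyond what each setting removes. Depth could not be judged.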
